A study of Mus musculus with 4 samples.

Results

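The transcripts of 8 genes of erythroid progenitors were followed by cell gate and by library: Epor, Car1, Car2, Cpox, Blvrb, Ermap, Rhd and Aqp1. They were chosen by symbol as enzymes and membrane proteins of the red cell lineage, 8 of the 32285 genes in the files. All 8 were counted in every one of the libraries. Their levels were described in cells with 1 or 2 unique molecular identifiers (UMIs, each standing for 1 captured transcript) of Klf1, in cells with 3 or more Klf1 UMIs, in cells with 3 or more Pf4 UMIs and in cells with 1 or more Hlf UMIs. Klf1 is an erythroid transcription factor, Pf4 a megakaryocyte product and Hlf a stem cell transcription factor, and none of the 8 genes was used to set a gate.

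The cells were mouse bone marrow, collected 10 weeks post transplantation, gated as CD45.2+ and loaded on the 10x Genomics 5′ single-cell chemistry (version 2). The 3 libraries compared were control Kit+ cells, Mll3/4 deleted Kit+ cells (called the deleted library here) and Mll3/4SI Kit+ cells (called the SI library), all CD45.2+Kit+, and a library of control CD45.2+B220lo cells was used as background. MLL3 and MLL4 are histone methyltransferases, and the labels give neither the meaning of SI, nor the driver or time of the deletion, nor the number of mice in a library, so differences between animals cannot be told apart from differences between genotypes. With 1 library per group there is no replicate spread, no difference was tested, and every value describes these libraries.

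Erythroid progenitors divide under erythropoietin, whose receptor Epor signals through JAK2 and STAT5. Under the transcription factors GATA1 and KLF1 they build the enzymes of haem synthesis, take up iron and load the membrane with transport and blood group proteins, while globin accumulates later. Carbonic anhydrase and aquaporin transcripts appear early in that course, and carbonic anhydrase 1 is a common marker of committed erythroid progenitors.

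After filtering, 11051 control, 13747 deleted and 11501 SI cells were kept, with median depths of 11594, 6507 and 11969 UMIs per cell. Between 1.48% and 2.34% of the barcodes of a library recurred in another. Levels are given as CPM, the UMIs of a gene per 1000000 UMIs of the same cells. The sum of 4 Y-linked genes was 149 CPM for deleted cells, against 0.0244 CPM for control and 0.0301 CPM for SI cells, so the sex of the donors and the deletion cannot be told apart. Kmt2c and Kmt2d, the genes of MLL3 and MLL4, stood at 51.8 and 20.1 CPM in the deleted against 58.1 and 24.0 CPM in the control library, and counts per gene do not show which exons were read, so they check no label. Of the deleted library, 91.1% of cells carried 3 or more UMIs of the B-lineage gene Cd79a and none of the gate genes.

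The promoters of these genes are shown because all 8 members were higher in cells with more Klf1 UMIs, and their windows can be read for the short motifs that GATA and KLF factors are known to prefer. Windows of 250 bases before to 50 after a start site, from RefSeq on GRCm38.p6, were found for 6 of the 8 members, and not for Car1 and Car2. The 6 members had 7 windows, as Blvrb had a second one. Members are counted by gene below, and the background by window. The GATA motif AGATAA or its variant TGATAA, and the KLF-type motif CCNCNCCC, were searched on both strands, and overlapping matches of the latter are printed as one run of capitals. A GATA motif was present in 4 of the 6 members, against 18.6% of all 32851 promoter windows of the same length. Those windows are Epor (chr9:21963527-21963826, minus strand), Ermap (chr4:119189946-119190245, minus strand), Rhd (chr4:134864286-134864585, plus strand) and Cpox (chr16:58669958-58670257, plus strand), written 5′ to 3′ along the gene, with matches to any of the motifs in capitals.
Epor: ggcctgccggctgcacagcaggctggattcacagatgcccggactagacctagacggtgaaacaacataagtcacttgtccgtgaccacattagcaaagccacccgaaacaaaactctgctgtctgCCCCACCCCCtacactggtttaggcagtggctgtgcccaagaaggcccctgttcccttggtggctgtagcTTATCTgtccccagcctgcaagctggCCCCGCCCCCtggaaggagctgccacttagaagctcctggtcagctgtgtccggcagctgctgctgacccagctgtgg
Ermap: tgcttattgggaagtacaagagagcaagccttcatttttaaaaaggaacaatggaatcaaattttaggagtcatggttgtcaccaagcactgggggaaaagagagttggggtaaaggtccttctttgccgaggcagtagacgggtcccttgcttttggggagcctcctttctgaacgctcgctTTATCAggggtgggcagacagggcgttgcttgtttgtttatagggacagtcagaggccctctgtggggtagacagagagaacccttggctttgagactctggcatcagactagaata
Rhd: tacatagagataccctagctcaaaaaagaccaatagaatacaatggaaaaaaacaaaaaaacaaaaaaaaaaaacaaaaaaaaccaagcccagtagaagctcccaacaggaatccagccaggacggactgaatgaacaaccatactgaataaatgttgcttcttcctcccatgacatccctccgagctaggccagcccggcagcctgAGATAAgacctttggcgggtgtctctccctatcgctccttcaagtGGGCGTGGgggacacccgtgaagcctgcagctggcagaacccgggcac
Cpox: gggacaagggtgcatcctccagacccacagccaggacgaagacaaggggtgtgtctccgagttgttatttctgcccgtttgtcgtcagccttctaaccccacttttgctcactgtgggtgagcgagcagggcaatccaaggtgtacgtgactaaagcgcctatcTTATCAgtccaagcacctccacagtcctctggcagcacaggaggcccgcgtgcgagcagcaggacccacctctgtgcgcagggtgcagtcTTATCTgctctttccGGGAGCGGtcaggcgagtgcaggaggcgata
The AGATAA match lay at -54 to -49 from the RefSeq start in Epor and at -43 to -38 in Rhd, and Ermap held TGATAA at -67 to -62. Cpox held both, TGATAA at -86 to -81 and AGATAA at 4 to 9. CCNCNCCC was present in Epor, Rhd and Cpox as shown and also in Blvrb and Aqp1, that is in 5 of 6 members, against 49.5% of all windows. The second Blvrb window held no match to any of the motifs. The stricter motif CCACACCC, present in 3.56% of all windows, was not found in a member window. A match describes the letters only.

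Over all kept cells the Kit+ libraries differed widely. Car1, carbonic anhydrase 1, which speeds the exchange of carbon dioxide and bicarbonate, stood at 1280.2 CPM in the control, 509.6 CPM in the SI and 56.3 CPM in the deleted library. Epor, the erythropoietin receptor, stood at 29.6 CPM in the control, 12.9 CPM in the SI and 1.99 CPM in the deleted library. Ermap, an erythroid membrane protein of the immunoglobulin superfamily that carries the Scianna blood group, stood at 75.8 CPM in the control, 28.4 CPM in the SI and 2.56 CPM in the deleted library. For all 8 genes the control library was highest and the deleted library lowest. The shares of gated cells ran the same way. Cells with 3 or more Klf1 UMIs were 13.9% of kept control, 6.03% of SI and 0.306% of deleted cells (1539, 694 and 42 cells), and cells with 1 or 2 Klf1 UMIs were 12.5%, 5.86% and 0.706% (1381, 674 and 97 cells). A share also depends on what fills the rest of a library, and a level over a whole library does not separate fewer cells from less RNA per cell, so levels within gates follow.

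Most transcripts of the 8 genes lay in the cells with 3 or more Klf1 UMIs. In the control library these cells held between 65.5% (Cpox) and 88.8% (Rhd) of each gene's UMIs. In the SI library the range was 45.2% (Cpox) to 87.7% (Rhd). The deleted library divided the members. There, Car1, Epor, Ermap, Rhd and Aqp1 still had between 51.6% and 83.9% of their UMIs in these 42 cells, whereas Car2 had 11.9%, Cpox 5.01% and Blvrb 17.7%. Of these genes, 83.1%, 91.0% and 76.6% of UMIs in the deleted library lay outside every gate.

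The 3 genes found outside the gates were also counted in cells of other lineages. In deleted cells with 3 or more Cd79a UMIs and no gate gene, Car2 stood at 91.8 CPM against 20.1 CPM in cells of the same library with 3 or more UMIs of Elane, a neutrophil protease gene. Cpox stood at 31.1 and 30.6 CPM in these cells and Blvrb at 32.9 and 26.3 CPM. Car2 thus differed between these cell types, while Cpox and Blvrb were near 30 CPM in both. Epor, Ermap, Rhd and Aqp1 were under 0.5 CPM in both, and Car1 stood at 2.42 and 1.40 CPM. In the control library the Elane-positive cells, used below as the background of each gene, held 34.0 CPM of Car1, 34.7 CPM of Car2 and between 0.840 and 27.1 CPM of the other 6 genes, and in the SI library 16.3 CPM of Car1 and 13.2 CPM of Car2. In these background cells Car1 and Car2 were past 2-fold lower in SI than in the control, 2 of the 4 members with a mean of 10 CPM or more, where 0.363% of all genes were lower and 1.24% higher by that much. In the deleted background cells 1 of those 4, Car1, was past 2-fold lower, where 0.931% of genes were lower and 2.29% higher.

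**Figure D1:**
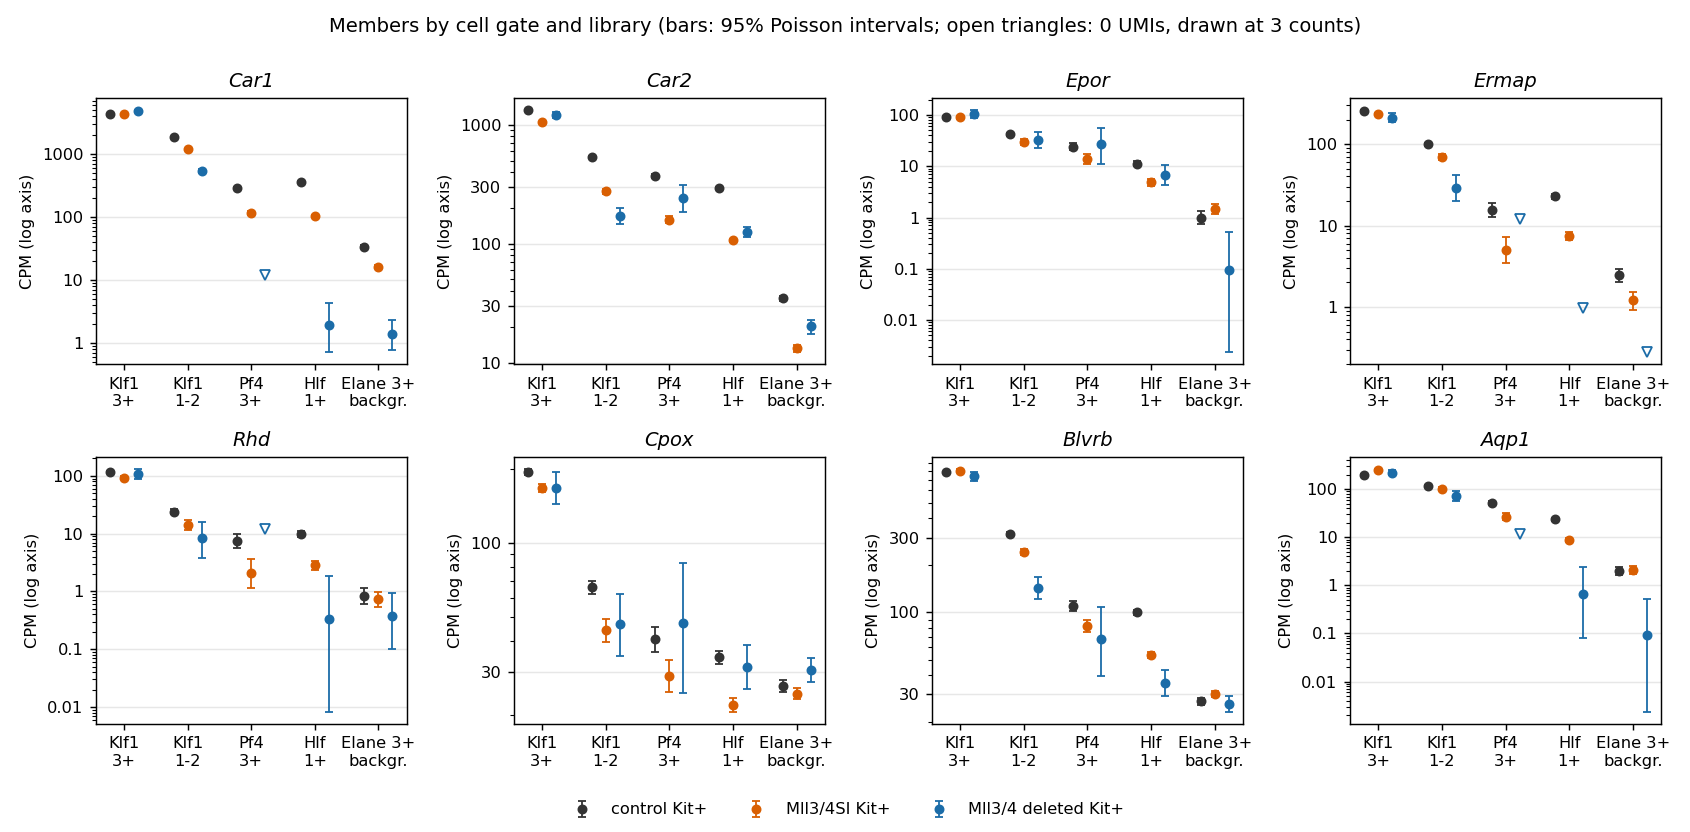
Level of each of the 8 genes in CPM (log axis, a scale per panel) in the 4 gates and in Elane-positive background cells of the control (black), SI (orange) and deleted (blue) Kit+ libraries, with 95% Poisson intervals. The libraries lie close together in Klf1 3+ cells and further apart for most genes in the other gates, and open triangles mark genes with 0 UMIs, drawn at 3 counts.

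Cells with 3 or more Klf1 UMIs carried erythroid transcripts in every library. Klf1, which set the gate, stood at 309 CPM in the control, 312 CPM in the SI and 304 CPM in the deleted library. Gata1, which did not, stood at 216 CPM in the control, 234 CPM in the SI and 251 CPM in the deleted library. Adult globin summed to 52.0 CPM for control cells, 429 CPM for SI cells and 4.62 CPM for deleted cells. Slc4a1, which marks later red cell precursors, had 0 UMIs in these cells of the SI and deleted libraries. In the SI library 8 of the 694 cells held 73.3% of the globin UMIs, and without them globin stood at 116 CPM.

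In these cells the receptor gene Epor stood at 92.7 CPM (89.5 to 96.0) in the control, 89.7 CPM (85.0 to 94.6) in the SI and 105 CPM (86.9 to 127) in the deleted library. The intervals, here and throughout, are 95% exact and cover counting error only. The intervals of the 3 libraries overlapped, and the ratio to the control was 0.968 (0.907 to 1.03) for the SI and 1.14 (0.935 to 1.37) for the deleted library. Epor lies on chromosome 9 from 21958897 to 21963506 (minus strand). Positions of genes are from the GENCODE M21 annotation of GRCm38.

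Car1 (chromosome 3, 14766216 to 14808368, minus strand) stood at 4285 CPM (4262 to 4307) in the control, 4287 CPM (4254 to 4320.1) in the SI and 4862 CPM (4731 to 4995) in the deleted library. The control and SI values could not be told apart, with a ratio of 1.0 (0.991 to 1.01), and the deleted value was higher by a ratio of 1.13 (1.10 to 1.17). With gates set on thinned cells, which kept 7 cells of the deleted library, that log2 ratio turned to -0.0096. Car2, the neighbouring and more widely expressed carbonic anhydrase 2 (chromosome 3, 14886273 to 14900770, plus strand), stood at 1325 CPM (1313 to 1337) in the control, 1049 CPM (1033 to 1065) in the SI and 1207 CPM (1143 to 1275) in the deleted library. It was lower in both, with ratios of 0.792 (0.777 to 0.806) for the SI and 0.911 (0.862 to 0.963) for the deleted library. The SI ratio of Car1 and that of its neighbour Car2 had intervals that did not overlap.

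Cpox encodes coproporphyrinogen oxidase, a mitochondrial enzyme of haem synthesis (chromosome 16, 58670292 to 58717636, plus strand; it overlaps Gpr15 on the other strand). It stood at 194 CPM (189.6 to 199) in the control, 167 CPM (161 to 174) in the SI and 167 CPM (144 to 194) in the deleted library, with ratios of 0.860 (0.821 to 0.901) and 0.861 (0.739 to 0.998) for the SI and deleted libraries. Blvrb, biliverdin reductase B, which reduces flavins and products of haem breakdown (chromosome 7, 27447978 to 27466144, plus strand), stood at 782 CPM (773 to 792) in the control, 803 CPM (789 to 818) in the SI and 738 CPM (687 to 791) in the deleted library. Its ratios were 1.03 (1.01 to 1.05) and 0.943 (0.878 to 1.01), both within 10% of 1.

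Of the membrane genes, Ermap (chromosome 4, 119175457 to 119190011, minus strand) stood at 258 CPM (252 to 263) in the control, 234 CPM (226 to 242) in the SI and 211 CPM (184 to 240.0) in the deleted library. Rhd, the gene of the mouse Rh blood group protein (chromosome 4, 134864536 to 134896172, plus strand), stood at 118 CPM (114 to 122) in the control, 93.3 CPM (88.5 to 98.3) in the SI and 108 CPM (89.5 to 129.6) in the deleted library. Both were lower in the SI library, with ratios of 0.908 (0.873 to 0.944) and 0.792 (0.745 to 0.842). Aqp1, which encodes a water channel (chromosome 6, 55336432 to 55348555, plus strand), went the other way and stood at 201 CPM (196 to 205) in the control, 251 CPM (243 to 259) in the SI and 222 CPM (195 to 252) in the deleted library, an SI ratio of 1.25 (1.2 to 1.30). The deleted ratios of the 3 genes were 0.818 (0.714 to 0.933), 0.918 (0.757 to 1.10) and 1.11 (0.968 to 1.26), and only that of Ermap had an interval that left out 1. With gates set on cells thinned to 5000 UMIs, where 7 deleted cells remained, deleted Ermap turned to 0.18 on the log2 scale.

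No member reached 2-fold in these cells in either library. The share of all genes past 2-fold, among those with a mean of at least 10 CPM and with 1 CPM added, was 0.545% higher and 0.19% lower for the SI library and 0.613% higher and 1.05% lower for the deleted library. The median log2 ratio of the 8 members was -0.09 for SI and -0.10 for deleted, each with 3 members above and 5 below 0, beside 0.0043 and 0.00082 over all genes. All 8 members reached the minimum of 10 CPM in both comparisons. Both comparisons share the control library, so their values are given side by side and not set against one another. B-lineage markers summed to 7.27 CPM in the control, 8.18 CPM in the SI and 198 CPM in the deleted cells of this gate, and granulocyte markers to 862, 807 and 1381 CPM. Without cells of 3 or more B-lineage UMIs, 25 deleted cells remained, and their median was -0.16. Without cells of over 1% granulocyte UMIs the median was -0.11 for SI and -0.07 for deleted. In a small set of 28 control B220lo cells of the same gate, 2 of 8 members were past 2-fold above control Kit+ cells, where 6.36% of all genes were higher and 5.27% lower by that much.

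**Figure D2:**
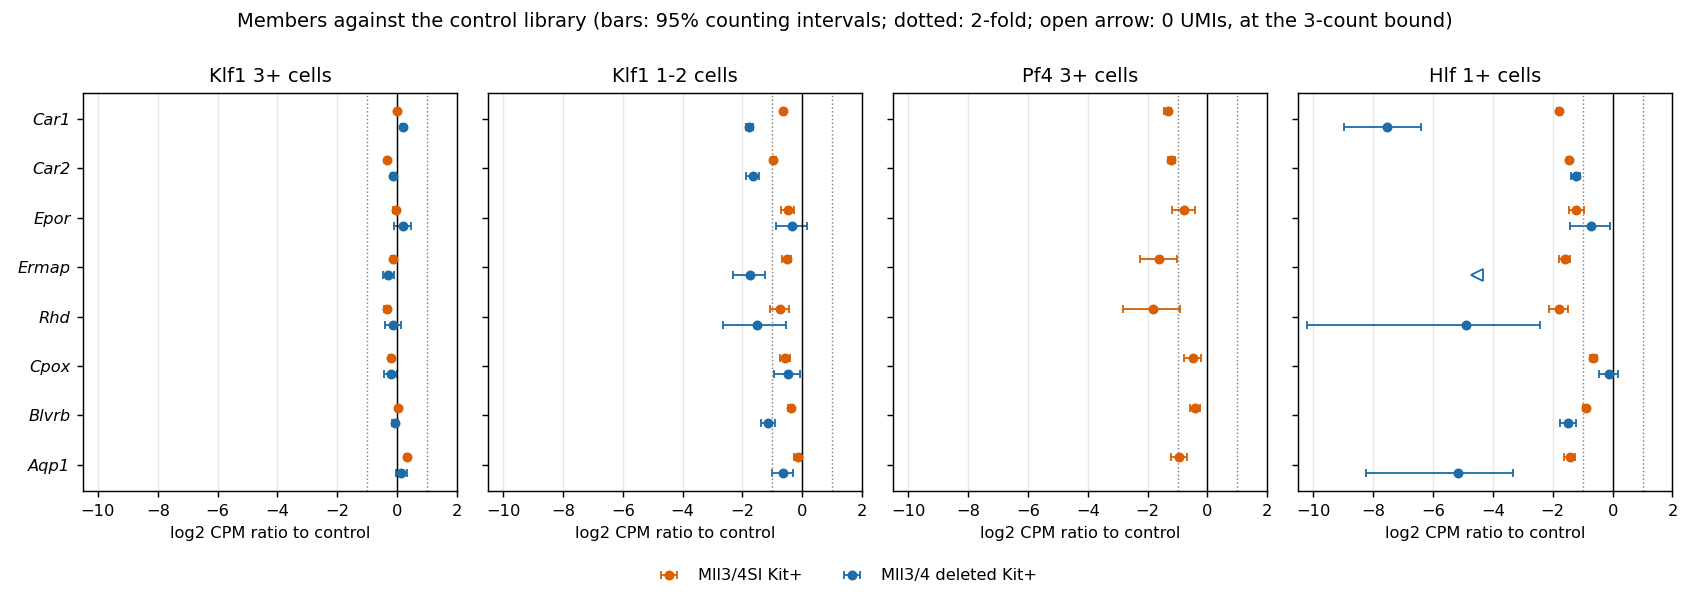
Log2 ratio of each gene's CPM to the control library in the 4 gates, SI in orange and deleted in blue, with 95% counting intervals and dotted lines at 2-fold; deleted Pf4 3+ cells are left out, since there are 13 of them. All points lie near 0 in Klf1 3+ cells, and all lie below 0 in the other gates.

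Detection per cell was compared after thinning each cell to 5000 UMIs. In cells with 3 or more Klf1 UMIs, Car1 was seen in 96.9% of 1521 control, 92.3% of 684 SI and 90.2% of 41 deleted cells (unthinned 97.8%, 94.5% and 90.5%), against 9.13%, 4.05% and 1.38% of Elane-positive cells. Rhd was seen in 31.9%, 26.9% and 26.8% of them (unthinned 63.2%, 57.3% and 50%), against under 0.5% of Elane-positive cells. At least 5 of the 8 genes were found together in 74.5% (72.2 to 76.7) of control, 68.7% (65.1 to 72.2) of SI and 56.1% (39.7 to 71.5) of deleted cells. In Elane-positive cells that share was 0.23%, 0.22% and 0%. The deleted interval reaches into the SI one and lies below the control one. The gene set was thus carried jointly by most of the control and SI cells, while the deleted interval reaches below 50%. None of the 8 was found in 0.263% of control, 0.731% of SI and 0% of deleted cells.

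**Figure D3:**
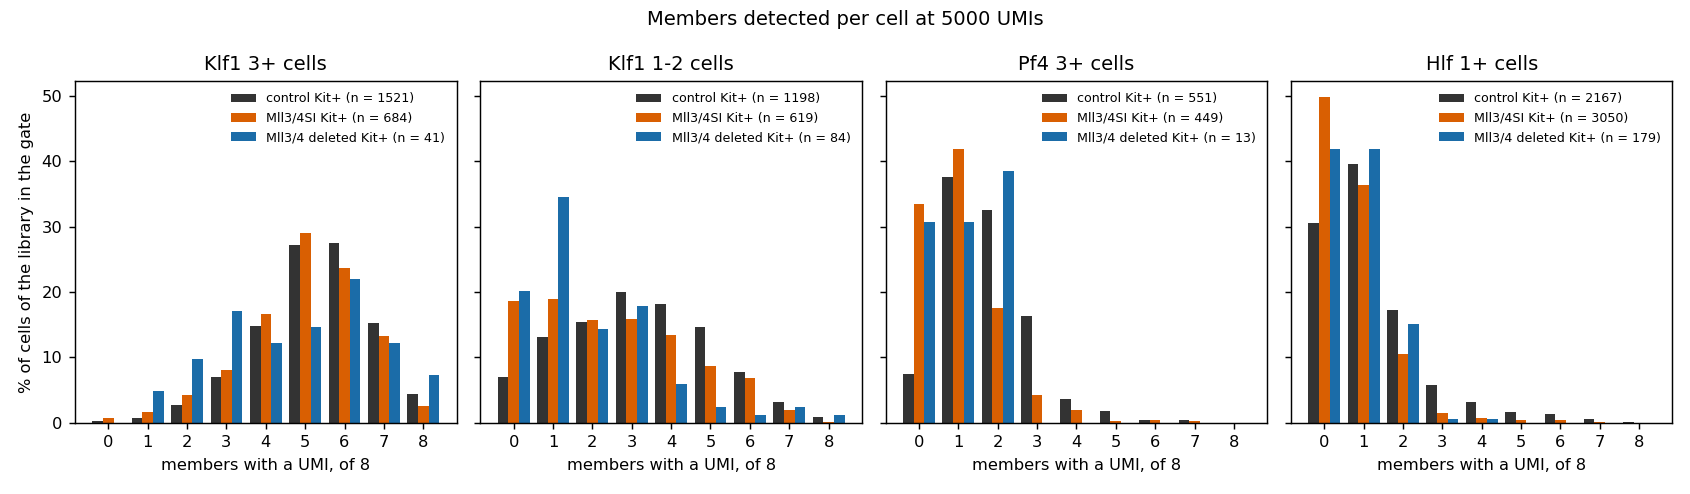
Number of the 8 genes with at least 1 UMI per cell, after thinning each cell to 5000 UMIs, as a percent of the cells of each library in the gate. The median of Klf1 3+ cells is 5 genes in each library, and that of Hlf 1+ cells is 1.

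Cells with 1 or 2 Klf1 UMIs held less of every gene, and here the libraries came apart. The gate was not equally filled. Klf1 itself stood at 128 CPM in the control, 115 CPM in the SI and 109 CPM in the deleted library, and Gata1 at 151, 141 and 97.7 CPM. A single Klf1 UMI was held by 903 of 1381 control, 472 of 674 SI and 78 of 97 deleted cells. Epor stood at 41.9 CPM (38.7 to 45.4) in the control, 30.0 CPM (26.2 to 34.1) in the SI and 32.9 CPM (22.9 to 45.7) in the deleted library. Car1 stood at 1842 CPM (1819.7 to 1864) in the control, 1191 CPM (1166 to 1215) in the SI and 538 CPM (495 to 584) in the deleted library. Car2 stood at 537 CPM (525 to 549) in the control, 275 CPM (263 to 287) in the SI and 171 CPM (147 to 198) in the deleted library. The intervals of the 3 libraries did not overlap in Car1 or Car2, and the order was control, SI, deleted in both. The SI ratio was 0.647 (0.631 to 0.662) for Car1 and 0.512 (0.488 to 0.538) for Car2, the lowest of the 8, and the deleted ratios were 0.292 (0.269 to 0.318) and 0.319 (0.273 to 0.369).

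The other enzymes followed in smaller measure. Cpox stood at 66.0 CPM in the control, 44.2 CPM in the SI and 47.0 CPM in the deleted library, with the deleted and SI libraries close together. Blvrb stood at 319 CPM in the control, 243 CPM in the SI and 144 CPM in the deleted library, with ratios of 0.762 (0.722 to 0.804) for SI and 0.451 (0.381 to 0.530) for deleted. Among the membrane genes Ermap stood at 98.9 CPM in the control, 68.9 CPM in the SI and 29.1 CPM in the deleted library, a deleted ratio of 0.294 (0.199 to 0.420). Rhd stood at 23.9 CPM in the control, 14.1 CPM in the SI and 8.46 CPM in the deleted library, the last from 9 UMIs. Aqp1 was the member nearest to the control in the SI library, at 115 CPM in the control, 103 CPM in the SI and 73.3 CPM in the deleted library, with ratios of 0.895 (0.821 to 0.975) and 0.637 (0.501 to 0.800).

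All 8 members were thus lower in both libraries in these cells. The median log2 ratio was -0.54 for SI, with none of 8 past 2-fold (background 0.218% lower, 0.804% higher), and -1.27 for deleted, with 5 of 8 past 2-fold lower, against a background of 1.72% of genes lower and 4.23% higher. Over all genes the medians were 0.05 and 0.01. The 5 were Car1, Car2, Ermap, Rhd and Blvrb. With gates set on cells thinned to 5000 UMIs, Ermap (-1.92) was still past 2-fold lower, and Car1 (-0.64), Car2 (-0.90), Rhd (-0.32) and Blvrb (-0.80) were not. All 8 SI intervals and 7 of the 8 deleted ones lay below 1, the exception being Epor at 0.784 (0.541 to 1.10).

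Cells of other lineages entered this gate unequally. B-lineage markers summed to 24.4 CPM in the control, 35.2 CPM in the SI and 4161 CPM in the deleted library, where 57.7% of the cells held 3 or more such UMIs and all 10 markers were present. Without those cells, 41 deleted cells remained and the deleted median was -1.14. Car1 then stood at 776 CPM in them and 1876 CPM in the control, and the Epor ratio was 1.0 (0.607 to 1.56). Mast or basophil markers summed to 219 CPM in the control, 694 CPM in the SI and 143 CPM in the deleted library. Without cells of 3 or more such UMIs the SI median was -0.31, Car1 stood at 1763 against 2246 CPM, and the Aqp1 ratio turned to 1.07 (0.970 to 1.17). With gates set on cells thinned to 5000 UMIs, the SI median was -0.23 and the deleted median -0.71, and Aqp1 in the SI library stood 0.03 above 0 on the log2 scale.

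In the control library every gene was higher at each step of Klf1 UMIs, but not in 1 shape. Rhd went from 17.8 CPM at 1 Klf1 UMI through 63.4 CPM at 3 to 5 to 199 CPM at 11 or more. Car1 went from 1350.3 through 3949 to 4476 CPM at 6 to 10 and stood at 4519 CPM at 11 or more. Aqp1 likewise differed little at the end, 210.4 and 212 CPM. Car2, Cpox, Blvrb, Ermap and Epor were higher again in the last step, Car2 from 1395 to 1783 CPM and Cpox from 206 to 279 CPM. Cells with more Klf1 UMIs were also deeper in UMIs. With every cell thinned to 5000 UMIs, 7 of the 8 genes were still higher at each step from 1 to 2 to 3 or 4 Klf1 UMIs, Rhd for example at 54.9, 73.0 and 119 CPM, while Epor stood at 67.5, 78.1 and 74.6 CPM. In the last thinned step, 28 cells with 5 or more, 3 genes were lower than at 3 or 4: Cpox at 92.9 against 184 CPM, Car2 at 1186 against 1273 CPM and Aqp1 at 200 against 214 CPM.

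The SI library met the control at different points. At 1 Klf1 UMI, Car1 stood at 760.3 CPM (737 to 784) against 1350.3 CPM (1326 to 1375) in the control, and Car2 at 208 CPM (196 to 221) against 460.2 CPM (446 to 474). At 6 to 10 UMIs, SI Car1 was above the control, 4789 against 4476 CPM, while Car2 remained below at 1151 against 1395 CPM. Cpox and Rhd were also below the control at 11 or more Klf1 UMIs, Cpox at 239 against 279 CPM and Rhd at 151 against 199 CPM. Blvrb was below it at 1 UMI, 179 against 258 CPM, and level with it at 11 or more, 1013 against 997 CPM. Aqp1 crossed over, from 77.4 against 94.2 CPM at 1 UMI to 269 against 212 CPM at 11 or more. In the deleted library Car1 stood at 520.3 CPM at 1 UMI, 613 CPM at 2 and 3596 CPM at 3 to 5, steps of 78, 19 and 19 cells. Ermap and Rhd had 0 UMIs at the step of 2 in that library. With cells thinned to 5000 UMIs, Car1 at 1 Klf1 UMI kept the order, 2984 CPM for control, 2222 CPM for SI and 1783 CPM for deleted cells.

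**Figure D4:**
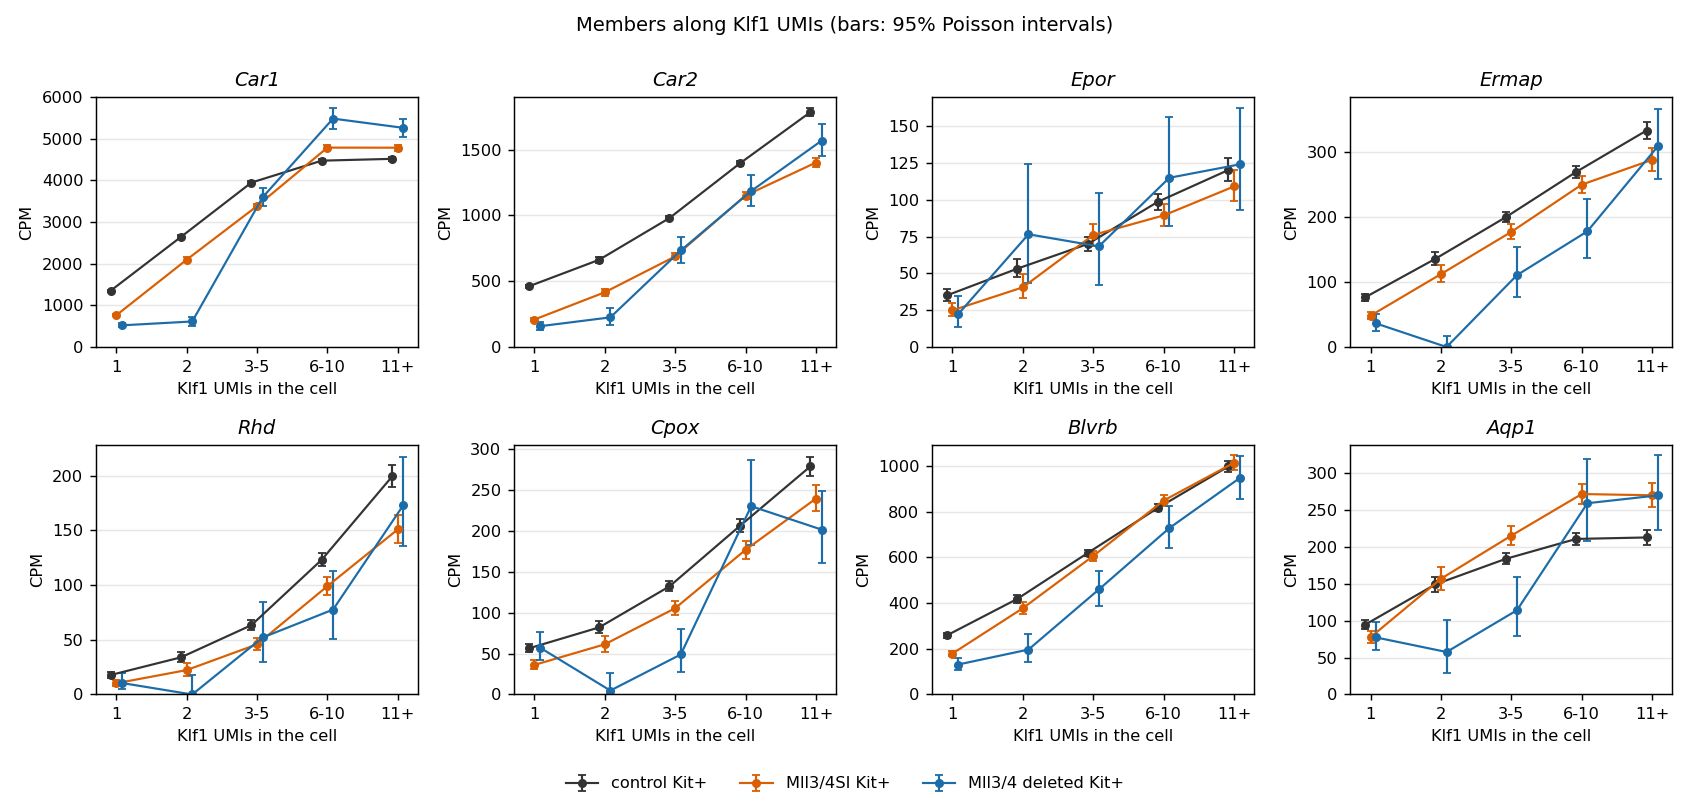
Level of each gene in CPM (linear axis from 0) in cells with 1, 2, 3 to 5, 6 to 10 and 11 or more Klf1 UMIs, for the control (black), SI (orange) and deleted (blue) libraries, with 95% Poisson intervals. Car1 and Aqp1 level off at 6 or more Klf1 UMIs in the control library, and Rhd does not.

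Cells with 3 or more Klf1 UMIs over those with 1 or 2 gave ratios of 4.92 (4.41 to 5.51) for Rhd in the control, 6.60 (5.43 to 8.11) in the SI and 12.8 (6.51 to 28.7) in the deleted library, the highest of the 8 in each. Aqp1 had the lowest, 1.74 (1.65 to 1.84), 2.44 (2.26 to 2.63) and 3.03 (2.34 to 3.96). This order changed with gates on thinned cells. There Epor was lowest in the control and SI, at log2 ratios of 0.11 and 0.29. In the deleted library Rhd was lowest at 0.81 and Ermap highest at 2.77. In the control 7 of 8 members were past 2-fold higher against 1.07% of all genes (7.05% were past 2-fold lower). In the SI library 8 of 8 were, against 1.28% (8.33% lower), and in the deleted library 8 of 8, against 3.93% (15.3% lower). The median log2 ratio was 1.30, 1.80 and 2.58. Median depth differed between these gates, 9114 to 9870.0 UMIs with 1 or 2 Klf1 UMIs and 21284 to 24412.5 with 3 or more over the libraries, and with gates on thinned cells the medians were 0.50, 0.64 and 1.07. With gates set anew on the thinned counts, none of 8 members was past 2-fold higher in the 280 and 1684 control cells. In SI 1 of 8 (Rhd) was, and 4 of 8 in the 7 and 62 deleted cells. No share over all genes was computed for these thinned gates. With the gates left unchanged, thinned control cells held 4121 CPM of Car1 with 3 or more Klf1 UMIs and 1811 CPM with 1 or 2. Rhd stood at 96.5 and 23.0 CPM and Aqp1 at 205 and 122 CPM in the same cells. At the gate's edge, control Car1 stood at 2644 CPM at exactly 2 and 3558 CPM at exactly 3 Klf1 UMIs, SI Car1 at 2095 and 2649.9 CPM, and deleted Car1 at 613 and 1261 CPM.

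Cells with 3 or more Pf4 UMIs numbered 590 in the control, 472 in the SI and 13 in the deleted library, and 114, 42 and 4 of them also had a Klf1 UMI. Epor stood at 24.1 CPM (20.7 to 28.1) in the control and 13.9 CPM (11.1 to 17.2) in the SI library. Car1 stood at 289 CPM (276 to 301) and 115 CPM (107 to 124) in them. Car2 stood at 368 CPM (354 to 382) and 159 CPM (149 to 169.6). The SI library was lower in all 3. Cpox and Blvrb differed less, with SI ratios of 0.711 (0.586 to 0.860) and 0.745 (0.664 to 0.834). Of the membrane genes, Ermap stood at 15.5 and 5.06 CPM, Rhd at 7.53 and 2.12 CPM and Aqp1 at 52.1 and 26.9 CPM.

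All 8 members were lower in SI, with a median log2 ratio of -1.07 (0.02 over all genes) and 4 of 8 past 2-fold lower, namely Car1, Car2, Ermap and Rhd. Of the 7 members with a mean of 10 CPM or more, all but Rhd, 3 were past 2-fold lower, against a background of 1.23% of such genes lower and 1.49% higher. At the edge of the gate, Car1 stood at 395 CPM at exactly 2 and 103 CPM at exactly 3 Pf4 UMIs in the control, and at 132 and 238 CPM in SI.

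Mast or basophil markers summed to 83.5 CPM in the control and 1280.3 CPM in the SI cells of this gate, where 63.6% of cells held 3 or more such UMIs. Without those cells 533 control and 172 SI cells remained, and the median was -0.34. Car1 then stood at 253 and 189.8 CPM and Car2 at 378 and 257 CPM, and both were still lower, as was Ermap with a ratio of 0.483 (0.274 to 0.806). The other 5 members had ratios with intervals that included 1, from 0.590 (0.276 to 1.15) for Rhd to 1.03 (0.891 to 1.2) for Blvrb. With 1 CPM added no member was past 2-fold, Ermap lying nearest at -0.96 on the log2 scale. Klf1-positive cells held 83.2% of control and 93.9% of SI Car1 UMIs in this gate. Without any Klf1 UMI, Car1 stood at 65.0 and 7.90 CPM and Car2 at 318 and 129 CPM, above the Elane-positive cells of both libraries for Car2 and of the control for Car1. In the 13 deleted cells Car1, Ermap, Rhd and Aqp1 had 0 UMIs. Taking 3 counts over the gate as the floor, Car1 was at least 24.3-fold and Aqp1 at least 4.39-fold lower than in the control. These bounds cover counting only and not which few cells were caught, and control Car1 was found in 28.0% of the gate's cells. Car2 stood at 241 CPM (185 to 310.2) in the deleted cells. For Ermap and Rhd the floor, 11.9 CPM, is near or above the control level. At these bounds Car1 and Aqp1, 2 of the 6 members with a mean of 10 CPM or more, were past 2-fold lower in those 13 cells, where 8.65% of all genes were lower and 4.11% higher by that much. With all 4 genes of 0 UMIs at their bounds the median log2 ratio of the 8 was -0.48.

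Cells with an Hlf UMI numbered 2493 in the control, 3238 in the SI and 186 in the deleted library. Epor stood at 11.3 CPM in the control, 4.85 CPM in the SI and 6.89 CPM in the deleted library. Car1 stood at 365 CPM (358 to 372) in the control, 105 CPM (102 to 108) in the SI and 1.97 CPM (0.723 to 4.29) in the deleted library, the last from 6 UMIs. Car2 stood at 293 CPM (286 to 299) in the control, 107 CPM (103 to 109.8) in the SI and 125 CPM (113 to 139) in the deleted library. Car1 was thus apart in all 3 libraries, while Car2 was lower than the control in both and lowest in SI. Cpox stood at 34.4 CPM in the control, 22.1 CPM in the SI and 31.5 CPM in the deleted library, beside 26.3, 24.5 and 30.6 CPM in Elane-positive cells. Blvrb stood at 100.1 CPM in the control, 53.7 CPM in the SI and 35.8 CPM in the deleted library. Below the gate's edge, in cells with no Hlf UMI, Car1 stood at 1524, 666 and 57.9 CPM, and at exactly 1 Hlf UMI at 476, 149 and 2.39 CPM in the control, SI and deleted libraries.

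The membrane genes were nearly absent from the deleted cells of this gate. Ermap stood at 22.8 CPM in the control and 7.47 CPM in the SI library and had 0 UMIs in the deleted library. At a floor of 3 counts that was at least 23.1-fold lower than the control, a bound that covers counting only. Control Ermap was found in 6.46% of the gate's cells. Rhd stood at 9.86 and 2.83 CPM and had 1 UMI in the deleted library, a ratio of 0.0333 (0.000839 to 0.187), which turned to 0.28 on the log2 scale with gates on thinned cells. Aqp1 stood at 23.8 and 8.83 CPM and had 2 UMIs there, a ratio of 0.0276 (0.00333 to 0.10). In each library 6 of 8 members were past 2-fold lower. Among the 6 members with a mean of 10 CPM or more, which leave out Epor and Rhd, these were 4 in SI and 5 in the deleted library, against backgrounds of 0.561% lower and 0.898% higher for SI and 1.33% lower and 1.08% higher for deleted. The median log2 ratio was -1.39 for SI and -2.25 for deleted, beside 0.03 and 0.01 over all genes. With gates on thinned cells the medians were -1.03 and -1.02.

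In the control and SI libraries most UMIs of the membrane genes and Car1 in this gate lay in cells that carried Klf1 as well. In the control library 285 of the 2493 cells, 11.4%, had a Klf1 UMI, and they held 90.2% of the gate's Car1 UMIs, 95.2% of Rhd, 92.5% of Ermap and 77.8% of Aqp1, but 39.4% of Car2 and 43.7% of Cpox. In the SI library such cells were 4.85% of the gate and held 91.8% of its Car1 UMIs, and in the deleted library they were 14 cells, 7.53%, with 83.3% of the 6 Car1 UMIs and none of the few Rhd and Aqp1 UMIs. Within these Klf1-positive cells Car1 stood at 1987 CPM in the control, 1527 CPM in the SI and 26.9 CPM in the deleted library. Without a Klf1 UMI and with fewer than 3 of Pf4, the members' median log2 ratio was -0.55 for SI and -0.52 for deleted. Car1 then stood at 38.7 CPM in the control, 9.23 CPM in the SI and 0.358 CPM in the deleted library. Its ratios to the control were 0.238 (0.210 to 0.270) for SI and 0.00924 (0.000234 to 0.0516) for deleted. Elane-positive cells held 34.0, 16.3 and 1.40 CPM (0.782 to 2.31) of it. The control value thus lay near that background and the SI value below it. The deleted value rested on too few UMIs to be placed above or below it. Car2 stood at 204 CPM in the control, 80.9 CPM in the SI and 117 CPM in the deleted library, above that background in all 3, with ratios of 0.398 (0.380 to 0.416) and 0.574 (0.511 to 0.642). Cpox stood at 22.5 CPM in the control, 18.5 CPM in the SI and 29.0 CPM in the deleted library. Each value lay below that of Elane-positive cells, 26.3, 24.5 and 30.6 CPM. The Cpox ratios to the control were 0.821 (0.732 to 0.923) for SI and 1.29 (1.01 to 1.63) for deleted, so the deleted value was above the control. Blvrb stood at 38.5 CPM in the control, 34.0 CPM in the SI and 35.1 CPM in the deleted library, above the 27.1, 30.3 and 26.3 CPM of those cells, with ratios of 0.884 (0.810 to 0.964) and 0.912 (0.732 to 1.12). Epor stood at 2.91 CPM in the control, 2.09 CPM in the SI and 4.65 CPM in the deleted library, so that its deleted ratio turned to 1.60 (0.809 to 2.92).

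Granulocyte markers summed to 17426, 13692 and 23581 CPM in the control, SI and deleted cells of the gate, and mast or basophil markers to 271, 1037 and 207 CPM. Without cells of over 1% granulocyte UMIs the medians of the gate were -1.62 for SI and -2.615 for deleted, and without cells of 3 or more mast or basophil UMIs -0.97 and -2.58. Among cells of at most 1% granulocyte UMIs with no Klf1 UMI and under 3 of Pf4, Car1 stood at 60.3 CPM in the control, above its Elane-positive cells, and at 10.8 CPM in SI and 0.788 CPM (1 UMI) in deleted cells. Car2 stood at 357, 115 and 227 CPM in the same cells, deleted Epor had a ratio of 2.17 (1.08 to 4.03), and the members' medians were -0.73 for SI and -0.47 for deleted.

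Other genes of the same pathways were read in cells with 3 or more Klf1 UMIs. Of 8 further genes of haem synthesis 7 had a mean of at least 10 CPM, and none was past 2-fold in either library, 5 being lower and 2 higher in SI. Ppox, the enzyme after Cpox, had an SI ratio of 1.13 (1.03 to 1.25), against 0.860 (0.821 to 0.901) for Cpox itself. Alas1, a first enzyme of the pathway, had 0.880 (0.794 to 0.973) and Alad 1.01 (0.978 to 1.05). Of 8 iron supply genes 7 were measured, none past 2-fold and all 7 lower in SI. Tfrc, the transferrin receptor, stood at 88.9 CPM in the control and 60.7 CPM in the SI library, a ratio of 0.683 (0.633 to 0.735), and Slc25a38, a mitochondrial glycine carrier, had 0.773 (0.702 to 0.851). Slc11a2 and Steap3 had 0.962 (0.873 to 1.06) and 0.999 (0.945 to 1.06). Tfrc in the deleted library had 1.01 (0.815 to 1.23).

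Among 16 other red cell membrane genes 12 were measured, with 8 higher and 4 lower in SI and 4 higher and 8 lower in the deleted library. Past 2-fold were 1 of the 12 in SI, higher, and 1 in the deleted library, lower. Over all genes in this gate 0.545% were past 2-fold higher in SI and 1.05% lower in the deleted library. Kel, a blood group metalloprotease, had an SI ratio of 1.25 (1.16 to 1.35), the membrane anchor Ank1 had 0.784 (0.734 to 0.838), and Rhag, the partner of Rh proteins, had 0.825 (0.760 to 0.895), near the Rhd ratio. Of 9 genes of Epo signalling 5 were measured and none was past 2-fold, with SI ratios of 0.931 (0.869 to 0.998) for Stat5a, 0.958 (0.866 to 1.06) for Jak2, 1.07 (0.977 to 1.18) for Lyn and 1.10 (0.984 to 1.22) for Pim1. All 10 erythroid regulators were measured and none was past 2-fold, with 8 higher and 2 lower in SI. The 10 include Klf1, whose UMIs set the gate. The highest were Nfe2 at 1.25 (1.19 to 1.32) and Gata2 at 1.16 (1.08 to 1.25), while Tal1 and Zfpm1 had 0.991 (0.930 to 1.05) and 0.996 (0.936 to 1.06). Of 10 other carbonic anhydrases Car13 alone was measured, with ratios of 1.19 (1.01 to 1.39) for SI and 0.464 (0.186 to 0.964) for deleted, the latter just past 2-fold and with an interval that nearly reaches 1.

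**Figure D5:**
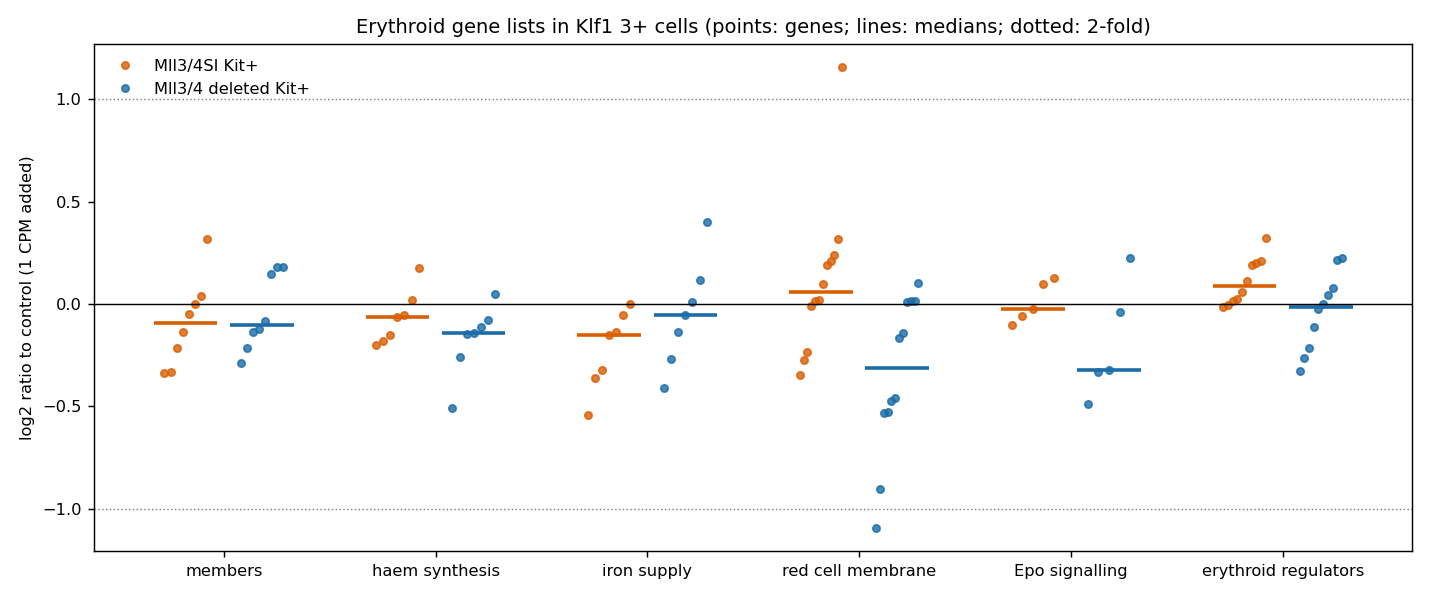
Log2 ratio to the control library (1 CPM added) in Klf1 3+ cells for the 8 genes and for measured genes of 5 pathway lists, SI in orange and deleted in blue, with a line at each median and dotted lines at 2-fold. In each library 1 point of the red cell membrane list lies past a dotted line, and all points of the 8 genes lie between the lines.

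In cells with 1 or 2 Klf1 UMIs, the lists lay nearer to the control than the members. In SI none of their genes was past 2-fold, and the list medians ran from -0.18 (iron supply) to 0.13 (carbonic anhydrases), beside -0.54 for the 8 members. In the deleted library haem synthesis had a median of -0.55 with 7 of 7 lower, iron supply -0.42 with 8 of 8 lower and the membrane list -0.43 with 4 of 10 past 2-fold lower (Ank1, Kel, Rhag and Add2), beside -1.27 for the members. The regulators, among them the gate gene Klf1, had -0.45 with 9 of 10 lower. The carbonic anhydrases had -0.997 with 3 of 3 lower, of which Car3 was past 2-fold. Epo signalling had -0.23 with 5 of 8 lower, but 3 of the 8, Cish, Socs2 and Bcl2l1, were past 2-fold higher, with ratios of 3.52 (2.31 to 5.22), 19.9 (13.7 to 29.1) and 4.40 (3.03 to 6.28). Over all genes of this deleted comparison, 1.72% were past 2-fold lower and 4.23% higher. The genes past 2-fold in this gate were named after their values were seen, and 57.7% of its deleted cells held 3 or more B-lineage UMIs. The 8 genes were chosen with results known, so these medians describe them only.

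The genes whose pattern was most like that of the 8 over the 12 sums of 3 libraries and 4 gates were Add2 (r = 0.993), Sphk1 (0.991), Pklr (0.988), Ank1 (0.985) and Atp1b2 (0.982), by Pearson correlation of log2 levels among 6809 genes. Add2 and Ank1 encode proteins of the membrane skeleton, and Pklr the pyruvate kinase of red cells and liver. The sums share libraries and some cells, so the values only order the genes. Among the members themselves r was highest for Car1 with Aqp1 (0.985) and Car1 with Ermap (0.977) and lowest for Car1 with Cpox (0.634).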

How the data were processed

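The deposited matrices held raw counts, whole-number UMI counts per gene and barcode, which the authors made with Cell Ranger 7.1.0 on mm10, per the submitters' processing notes. Barcodes with at least 1000 UMIs, 500 genes and at most 10% mitochondrial UMIs were kept, and doublets were removed at a Scrublet score of 0.25 in scanpy 1.11.5 (840 control, 1168 deleted, 580 SI and 949 B220lo barcodes), a score chosen after the scores were seen, since its own thresholds marked almost none in 3 libraries. All barcodes together held 163751605 control, 130424242 deleted, 166327773 SI and 85445426 B220lo UMIs. The samples form 4 groups of 1 library each. UMIs of a gate's cells were summed per library and given as CPM, with exact Poisson intervals, conditional exact binomial intervals for ratios and Clopper-Pearson intervals for shares (Python 3.11.15, scipy 1.17.1). Log2 ratios carried 1 CPM. Gates may share cells. The 8 genes and the lists were chosen with earlier results of these data known. All 8 were named, as were the 5 most like genes of at least 20 CPM on average. From each list, genes were named among those with the 2 largest and 2 smallest SI ratios in Klf1 3+ cells, and not all of these are reported by name. List genes past 2-fold in Klf1 1-2 cells were named too, after their values were seen, and so were cell type markers such as Slc4a1. The computation of ratios was tested on simulated counts. No p-value was computed, since each group is 1 library. Alternatives were other cell filters, doublets kept, thinned or exclusive gates, B-lineage or mast cells left out, other totals, cell means and pseudocounts. Leaving out cells with over 1% granulocyte UMIs, and the views of Hlf and Pf4 cells by Klf1 UMI, were chosen after seeing the data. Immunoglobulin contig tables were not used here, and some listed genes are counted but not reported by name here. A deposited identifier was matched to GENCODE M21 for 32158 of 32285 genes.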

Additional observations from a re-analysis of the deposited data

Results flagged for a closer look

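Blvrb and Aqp1 differed in direction between gates in the SI library. In cells with 3 or more Klf1 UMIs, the log2 ratio of SI to control was 0.039 for Blvrb and 0.32 for Aqp1, and in cells with an Hlf UMI it was -0.89 for Blvrb and -1.33 for Aqp1. The difference between gates was not tested, and the gates share 48 SI and 108 control cells. Outside the Kit+ comparison, 28 cells of the control B220lo library held 3 or more Klf1 UMIs and more of 7 members than control Kit+ cells of that gate. Car2 stood at 1716 CPM, Epor at 119 CPM, Ermap at 357 CPM and Rhd at 527 CPM. Cpox stood at 486 CPM, Blvrb at 1136 CPM and Aqp1 at 311 CPM. Rhd and Cpox were past 2-fold there, 2 of 8 members against 6.36% of all genes higher and 5.27% lower. Car1 was lower, 3134 CPM, and adult globin stood at 88957 CPM against 52.0 CPM in control Kit+ cells.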

How the results depend on the processing

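No paired analysis was possible because each group is 1 library, and for the same reason no library could be left out. The 10 medians of the 8 members that were recomputed kept their sign under the 13 alternatives run for each. The deleted median in Pf4 cells and those of the Elane-positive and B220lo cells were not recomputed. The SI median in Klf1 1-2 cells, -0.54, was -0.23 with gates on thinned cells and -0.31 without mast or basophil cells, and the deleted one, -1.27, was -0.71 with thinned gates. The medians of Klf1 3+ over Klf1 1-2 cells moved too. With thinned gates they were 0.50 (control), 0.64 (SI) and 1.07 (deleted), with exclusive gates 1.15, 1.55 and 2.36, and as a mean over cells 1.18, 1.655 and 1.91. Without mast or basophil cells they were 1.12 in the control and 1.31 in SI, without granulocyte-rich cells 1.11 and 1.59, and with 10 CPM added 1.70 in SI and 2.39 in the deleted library. The deleted one was 2.31 without B-lineage cells, and the control one 1.24 both with no filter on barcodes and with doublets kept.

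Counts of genes past 2-fold moved with the pseudocount and the low-value filter. In Klf1 1-2 cells they were 89 (SI) and 529 (deleted), 49 and 308 with 10 CPM added, and 261 and 1636 over genes of at least 1 CPM. In Klf1 3+ cells they were 58 and 130, then 32 and 46, and 144 and 750. In Hlf 1+ cells they were 130 and 214, then 65 and 129, and 337 and 767, and for SI in Pf4 3+ cells 239, then 143, and 665. Single members changed sign 9 times where the counting interval of the reported value left out 0. With thinned gates they were Aqp1 in SI Klf1 1-2 cells (0.027) and, in the deleted library, Car1 (-0.0096) and Ermap (0.18) in Klf1 3+ cells and Rhd (0.28) in Hlf cells. With exclusive gates it was deleted Epor in Hlf cells (0.53). Without mast or basophil cells they were SI Aqp1 in Klf1 1-2 cells (0.095) and SI Cpox (0.027) and Blvrb (0.048) in Pf4 cells, and as a mean over cells SI Blvrb in Klf1 3+ cells (-0.0041). Where that interval included 0 there were 12 further changes, in 5 values: 5 of SI Car1 in Klf1 3+ cells (to -0.070), 4 of deleted Cpox in Hlf cells (to 0.80), and 1 each of SI Epor (0.095) and deleted Aqp1 (-0.032) in Klf1 3+ cells and of deleted Epor in Klf1 1-2 cells (0.00069). The cause was not tested. The deleted library has 42 cells in the Klf1 3+ gate and 13 in the Pf4 gate, which limits its values.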

Other observations

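In the control B220lo library most Blvrb UMIs lay outside the gated cells. It stood at 218 CPM in cells with 3 or more Cd79a UMIs and no gate gene and at 48.1 CPM in Elane-positive cells, and 92.8% of its UMIs lay outside every gate. Car2 stood at 46.4 and 5.66 CPM in the same cells. Deleted Kit+ cells with Cd79a held 32.9 CPM of Blvrb and 91.8 CPM of Car2, so the order of the 2 libraries was opposite for these genes. Both libraries are single, and they differ in sort, depth and genotype.

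In the gate of 1 or 2 Klf1 UMIs, adult globin stood at 262 CPM in the control, 15.7 CPM in the SI and 7.52 CPM in the deleted library, an order that the gate of 3 or more UMIs did not have. Control Hlf cells held 152 CPM of globin, against 13.9 CPM in SI and 30.5 CPM in deleted Hlf cells. In the control library 285 cells with a Klf1 UMI were also Hlf cells, so these values are not independent. How globin UMIs were spread over the cells of these 2 gates was not counted. A few globin-rich cells therefore cannot be told apart from a level shared by many.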
